A study of Mus musculus with 6 samples.

Results

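The genes described here are 10 members of the Bcl2 family of cell survival and cell death regulators, which were taken by symbol from the 24062 genes counted in each library. The choice names genes by function and uses no measured value, but it was made with earlier results of these data known. The survival genes are *Bcl2*, *Bcl2l1* and *Mcl1*, and the death genes are *Bax*, *Bak1*, *Bad*, *Bid*, *Bcl2l11*, *Bbc3* and *Pmaip1*. RNA was sequenced from CD31+ckit+ cells of the aorta-gonad-mesonephros region (AGM) of E10.5 mouse embryos, where the first hematopoietic stem cells form in clusters on the aortic wall. The cells were sorted by the fluorescence of a Venus reporter of *Gata2*, a transcription factor of hematopoietic stem and progenitor cells, into a medium (Vmed) and a high (Vhigh) fraction. There were 3 libraries per fraction, numbered 1 to 3 in each, and the study describes them as independent experiments. The comparison asks whether the balance of survival and death genes differs with the level of *Gata2*.

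Both fractions came from embryos with 1 Gata2Venus allele, bred from homozygous males and C57BL/6J females, in which Venus is translated from the *Gata2* transcript itself through an IRES in its 3′ untranslated region. No library lacks the reporter and none was treated. Venus marks any cell that transcribes *Gata2*, so the gate is not limited to 1 cell type. Dead cells were excluded with Hoechst dye at the sort, so the values describe cells alive at that point. The number of embryos pooled for each library is not given in the sources used here.

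The Bcl2 family decides whether the outer membrane of mitochondria stays closed. BH3-only proteins (Bad, Bid, Bim, Puma and Noxa, the last 3 encoded by *Bcl2l11*, *Bbc3* and *Pmaip1*) bind through a short helix, the BH3 domain, into a groove of the survival proteins or of the effectors Bax and Bak. Effectors that are set free form pores, cytochrome c leaves the mitochondria and caspases are activated. Blood stem and progenitor cells are known to depend on *Mcl1*, late erythroid cells on *Bcl2l1*, and Bim and Puma are known to limit blood cells deprived of cytokines.

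The BH3 coding sequence is what the family has in common, and it is shown for 9 members to make clear which genes were counted. Each run is 27 bases (9 codons) of the coding strand, read from GRCm38 along the principal GENCODE M21 transcript. Capitals mark the leucine codon and, after 3 further codons, the codon for a small residue and the aspartate codon that follows it. For the survival genes, *Bcl2* is at chr1:106712575-106712601 (minus strand, exon 1), *Bcl2l1* at chr2:152829697-152829723 (minus, exon 2) and *Mcl1* at chr3:95659436-95659462 (plus, exon 1).
Bcl2: CTCcgccgggctGGGGATgacttctct
Bcl2l1: CTGagagaggcaGGCGATgagtttgaa
Mcl1: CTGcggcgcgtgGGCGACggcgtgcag
The effectors *Bax* and *Bak1* carry it at chr7:45465997-45466023 (minus strand, exon 3) and chr17:27022531-27022557 (minus, exon 4).
Bax: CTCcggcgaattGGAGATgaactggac
Bak1: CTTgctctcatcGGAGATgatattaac
Among the BH3-only genes, the sequence is at chr19:6950792-6950818 for *Bad* (plus strand, exon 3), at chr6:120897289-120897315 for *Bid* (minus, exon 4), at chr2:128147150-128147176 for *Bcl2l11* (plus, exon 3) and at chr7:16313773-16313799 for *Bbc3* (plus, exon 3).
Bad: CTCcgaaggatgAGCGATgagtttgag
Bid: CTCgcccaaataGGCGATgagatggac
Bcl2l11: CTGcggcggatcGGAGACgagttcaac
Bbc3: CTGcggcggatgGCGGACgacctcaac
The small residue was glycine in 7 members, serine in *Bad* and alanine in *Bbc3*. *Bcl2l11* and *Bbc3*, whose products are both known to bind every survival protein, were the most alike, with 22 of 27 bases identical, whereas *Bcl2* and *Bak1* shared 11. The letters alone do not define the domain, as the same pattern of codons occurs in 32.8% of 22500 principal transcripts.

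Counts on genes ranged from 8296831 to 12035206 per library. The Vhigh library of replicate 1 stood apart, with 10427 genes detected against 12709 to 18460 in the others, and with 23.8% of the tested genes at 0 counts against 0.575% to 8.17%. Both libraries of replicate 3 had more counts on *Rn45s*, a ribosomal RNA gene (10.5% in Vmed and 7.47% in Vhigh, against 0.887% to 1.53% in the other 4 libraries). The share of uniquely aligned reads that was counted on genes varied as well. It was 38.9% in Vhigh replicate 2, the library with the most genes detected. In replicate 3 it was 83.8% in Vmed and 85.7% in Vhigh, and the remaining libraries had 50.3% to 60.2%. Values are CPM, counts scaled to the same total on genes in each library, and 3 counts correspond to 0.249 to 0.362 CPM. The sorting genes *Kit*, which encodes ckit, and *Pecam1*, which encodes CD31, were detected in every library. *Kit* was at 64.1, 208 and 59.1 CPM in Vmed replicates 1, 2 and 3 and at 255, 490.3 and 521 CPM in Vhigh, without overlap between the fractions. *Gata2* was at 50.3, 29.4 and 68.3 CPM in Vmed and 39.2, 82.5 and 142 CPM in Vhigh, with overlap. In replicate 1 Vhigh was below Vmed, and the fitted log2 fold change of *Gata2* was 0.78 (standard error 0.73).

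Markers of cell types were summed in each library, and 0 of these genes had an adjusted p under 0.05. The sums did not overlap between the fractions for macrophage and mesenchymal markers and overlapped for the other lists. The summed macrophage markers were at 971 to 1783 CPM in Vmed and 91.0 to 337 CPM in Vhigh, with 10 of 10 genes lower in mean. Of these 10, 6 were lower without overlap, where 4.71% of all genes were, and the others overlapped. The gene with the lowest log2 fold change among them, *Adgre1*, had 0 counts in 2 of the Vhigh libraries and 0.249 CPM in the third. The mesenchymal markers were at 1721 to 5248 CPM in Vmed and 281 to 616 CPM in Vhigh, with 8 of 8 lower in mean. Of these 8, 6 were lower without overlap, where 4.71% of all genes were. The blood progenitor markers were at 455 to 1086 CPM in Vmed and 889 to 2806 CPM in Vhigh, with 9 of 9 higher in mean in Vhigh. The endothelial markers were at 1159 to 3907 CPM and 846 to 2630 CPM, with 8 of 8 lower. The blood progenitor list holds *Kit* and *Gata2* and the endothelial list *Pecam1*. Both sums thus contain genes that the sort was based on and are in part set by it. The megakaryocyte markers were at 461 to 934 CPM in Vmed and 165 to 493 CPM in Vhigh (5 of 8 lower). The erythroid markers were at 180.4 to 601 CPM and 98.2 to 233 CPM (4 of 8 lower), with *Hba-a1* at 0 in each library. In the paper, CD31 serves as a marker of endothelial and cluster cells and ckit as a marker of cluster cells. How much the cell types of these lists add to the values of the Bcl2 family was not tested. In bulk libraries fewer cells of a type and less RNA per cell cannot be told apart.

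All 10 members were detected and passed the filter on low counts. In edgeR's quasi-likelihood test of Vhigh against Vmed, 0 of 10 members had an adjusted p under 0.05, as did 0 of all 12688 genes tested (0%). At an unadjusted p under 0.05 there were 0 members and 259 of the 12688 genes (2.04%), and with the replicate number as a block 0 members and 528 genes (4.16%). DESeq2, limma-voom and edgeR's likelihood ratio test also called 0 members. The adjusted p was 0.9998 for each member, and the unadjusted p ranged from 0.23 for *Bcl2* to 0.91 for *Bcl2l1*. The fractions overlapped for each member, as 0 members had all Vhigh libraries above all Vmed libraries, against 4.15% of genes tested, and 0 had them all below, against 4.71%. By same-numbered pairs, *Bbc3* and *Pmaip1* were higher in Vhigh in 3 of 3, a pattern found in 15.2% of genes, and *Bcl2l11* was lower in 3 of 3, a pattern found in 15.4%. The median log2 fold change was 0.26 over the members and -0.02 over all genes tested. In exact two-sided permutation tests of single genes, where the smallest p that 3 libraries against 3 can give is 0.1, members had p from 0.2 to 1.

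**Figure D1:**
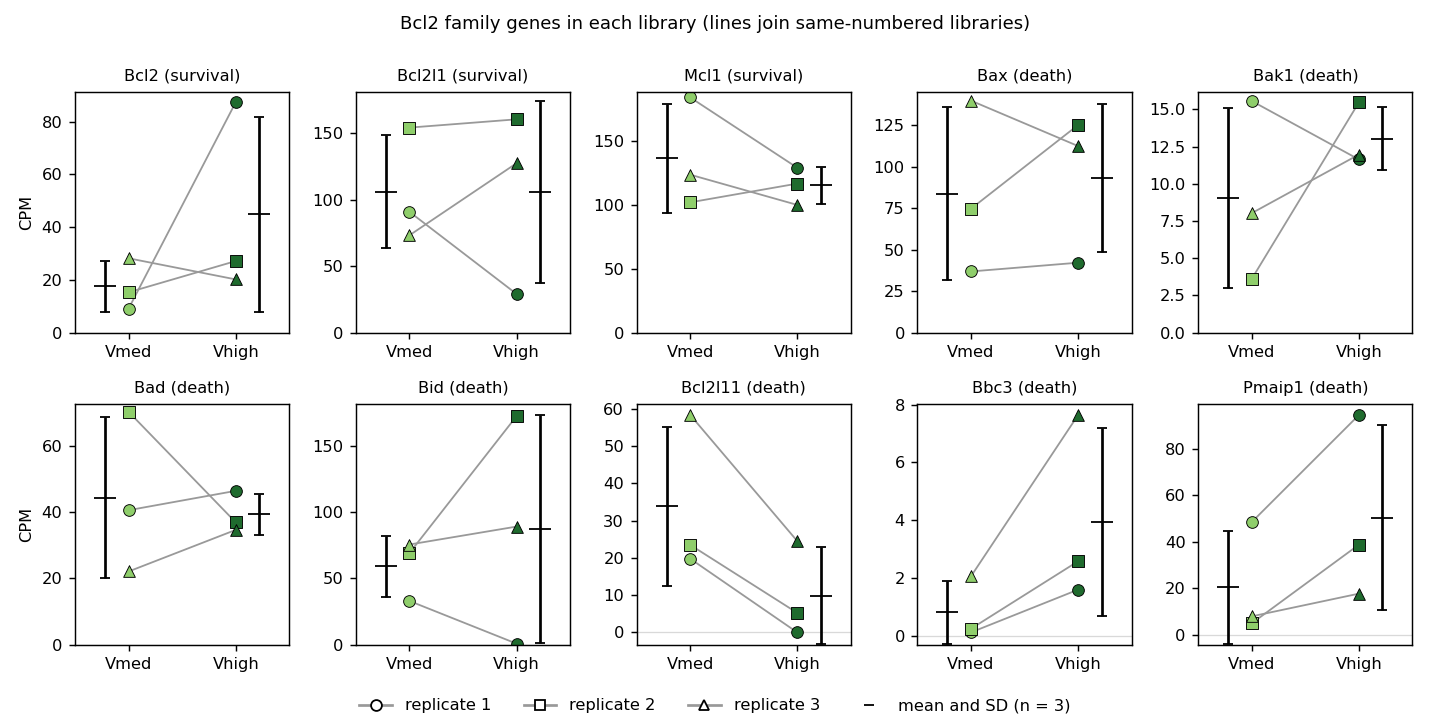
CPM of the 10 genes (vertical axis, 1 panel per gene) in the Vmed and Vhigh libraries. The axis starts at 0, or below 0 where an SD bar reaches under it. Symbols give the replicate, grey lines join same-numbered libraries and bars show mean and SD (n = 3). Every panel has overlapping fractions, and Bid and Bcl2l11 in Vhigh replicate 1 sit at 0.657 and 0 CPM.

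*Bcl2* encodes the founding survival protein of the family. It was at 9.15, 15.3 and 28.2 CPM in Vmed replicates 1, 2 and 3 and at 87.4, 27.2 and 20.2 CPM in Vhigh. The single highest value was Vhigh replicate 1, and the other Vhigh libraries lay within the Vmed range, with Vhigh below Vmed in pair 3. The means were 17.6 ± 9.72 CPM and 44.9 ± 37.0 CPM (SD, n = 3), which gave a fitted log2 fold change of 1.39 (standard error 1.07, 95% interval -0.98 to 3.75). Without Vhigh replicate 1, the log2 fold change was 0.32. *Bcl2* (chromosome 1, 106538178 to 106714274) is spread over a long locus with a long exon sequence of 9157 bases.

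*Bcl2l1* encodes Bcl-xL and, by alternative splicing, the death-promoting Bcl-xS, and counts per gene do not separate them. It was at 90.8, 154 and 73.2 CPM in Vmed and 29.1, 160.4 and 127 CPM in Vhigh. Here Vhigh replicate 1 was the lowest of the 6 libraries, where it was the highest for *Bcl2*, and Vhigh replicate 2 the highest. The means were equal at this precision, 106 ± 42.6 CPM and 106 ± 68.3 CPM (SD, n = 3), and the log2 fold change was -0.08 (standard error 0.68, 95% interval -1.59 to 1.43). This interval still holds changes of more than 1 on the log2 scale in either direction. The sign turned without Vmed replicate 2 (0.21) and without Vhigh replicate 1 (0.34).

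*Mcl1* encodes a short-lived survival protein and had the steadiest expression of the family. It was at 184, 102 and 123 CPM in Vmed and 129, 116 and 99.7 CPM in Vhigh, so the highest library was 1.84-fold above the lowest. The standard deviation of log2(CPM + 1) over the 6 libraries was 0.32, where the median over all genes tested was 1.26. Only 3 members were above that median, which also covers genes with far fewer counts. The log2 fold change was -0.28 (standard error 0.52, 95% interval -1.44 to 0.88), the narrowest interval among the members. It was 0.03 without Vmed replicate 1, the library with the highest value.

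The summed survival genes were at 284, 271 and 225 CPM in Vmed and 245, 304 and 247 CPM in Vhigh and overlapped. Their make-up differed between libraries. On the RPKM scale, in which counts are also divided by exon length so that genes can be compared, *Mcl1* gave 45.8% to 72.1% of the survival sum in each of the 6 libraries. *Bcl2l1* gave 26.6% to 51.7% in 5 libraries and 11.8% in Vhigh replicate 1, and *Bcl2* gave 1.34% to 5.59% in those 5 and 17.8% in Vhigh replicate 1.

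Of the effectors, *Bax* encodes the pore protein that waits in the cytosol. It was at 36.8, 74.6 and 139.7 CPM in Vmed and 42.1, 125 and 112 CPM in Vhigh. Replicate 1 was the lowest library in both fractions, and the spread within a fraction was larger than the difference between the means of 83.7 ± 52.0 CPM and 93.2 ± 44.7 CPM (SD, n = 3). This gave a log2 fold change of 0.09 (standard error 0.70, 95% interval -1.46 to 1.64). Its sign turned when any of 4 libraries was left out, with -0.26 without Vmed replicate 1 as the lowest value.

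*Bak1* encodes the effector that resides in the mitochondrial membrane. It was at 15.6, 3.62 and 8.03 CPM in Vmed and 11.6, 15.5 and 11.96 CPM in Vhigh. The Vhigh libraries lay close together inside the wide Vmed range. For *Bak1* the log2 fold change was 0.45 with a standard error of 1.47, and its 95% interval reached from -2.82 to 3.73. It was 0.03 without Vmed replicate 2 and 1.13 without Vmed replicate 1.

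Among the BH3-only genes, *Bad* encodes a protein that is held inactive by phosphorylation under growth factor signaling. It was at 40.5, 70.1 and 22.03 CPM in Vmed and 46.3, 36.8 and 34.6 CPM in Vhigh, with the Vhigh libraries again inside the Vmed range. Fitted over all libraries, the log2 fold change was -0.17 (standard error 0.86, 95% interval -2.08 to 1.73). Without Vmed replicate 2, which had the highest value, it was 0.25.

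*Bid* encodes the protein that caspase-8 cleaves, which links death receptors to mitochondria. It was at 32.95, 69.2 and 75.7 CPM in Vmed and 0.657, 173 and 89.2 CPM in Vhigh. The lowest and the highest library of the 6 were both Vhigh, replicate 1 with 7 counts and replicate 2, and they differed 263-fold. Over the members, *Bid* had the largest standard deviation of log2(CPM + 1), 2.39. The log2 fold change was 0.44 (standard error 1.22, 95% interval -2.27 to 3.15), and its sign depended on the model. It was -0.76 with the replicate block, -0.98 with limma-voom and -0.45 without Vhigh replicate 2, and 1.02 without Vhigh replicate 1.

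*Bcl2l11* encodes Bim, which binds each of the survival proteins. It was at 19.8, 23.5 and 58.4 CPM in Vmed and 0, 5.25 and 24.5 CPM in Vhigh. Each Vhigh library was below its same-numbered Vmed library, but Vhigh replicate 3 was above Vmed replicates 1 and 2, so the fractions overlapped. In pair 1 the Vhigh library had 0 counts where Vmed had 173. Against a floor of 3 counts this is 70.3-fold lower, a bound that covers counting error only. In that Vhigh library 23.8% of the tested genes were at 0. The ratio of Vhigh to Vmed was 0.223 in pair 2 and 0.420 in pair 3. The differences of log2(CPM + 1) in pairs 1, 2 and 3 were -4.38, -1.97 and -1.22. The fitted log2 fold change was -1.80 (standard error 1.68, 95% interval -5.55 to 1.94) and -3.27 with the replicate block, and it was -1.22 without Vhigh replicate 1, the library with many genes at 0.

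*Bbc3* encodes Puma, a target of p53, and was the member with the fewest counts. It was at 0.114, 0.241 and 2.06 CPM in Vmed, from 1, 2 and 20 counts, and at 1.59, 2.58 and 7.64 CPM in Vhigh, from 17, 28 and 92 counts. Every Vhigh library was above its same-numbered Vmed library, and Vhigh replicate 1 was below Vmed replicate 3. The ratio of Vhigh to Vmed was 13.9 in pair 1 (95% interval of the counts 2.18 to 583) and 10.7 in pair 2 (2.70 to 92.6). In pair 3, which had the most counts, it was 3.71 (2.27 to 6.36), and these intervals cover counting error only. The log2 fold change was 2.24 (standard error 2.12, 95% interval -2.47 to 6.94), the largest and the least precise among the 10 members. It ranged from 1.35 to 4.38 as single libraries were left out.

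*Pmaip1* encodes Noxa, which binds *Mcl1* above other survival proteins, and lies on chromosome 18 from 66458533 to 66465565. It was at 48.5, 4.94 and 7.93 CPM in Vmed and at 94.6, 38.8 and 17.7 CPM in Vhigh. Replicate 1 was the highest library of each fraction, and Vmed replicate 1 was above Vhigh replicates 2 and 3, which made the fractions overlap. Within pairs the differences of log2(CPM + 1) were 0.95, 2.74 and 1.07, higher in Vhigh in 3 of 3. The log2 fold change was 1.28 (standard error 1.18, 95% interval -1.33 to 3.90), and it was 0.29 without Vhigh replicate 1 and 3.00 without Vmed replicate 1. The exact two-sided permutation p was 0.3.

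**Figure D2:**
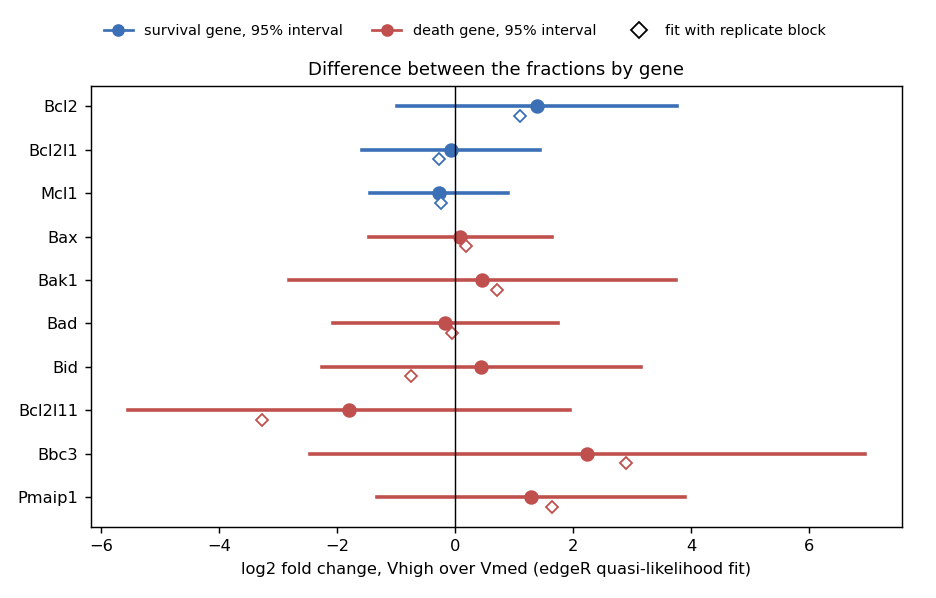
Log2 fold change of Vhigh over Vmed (horizontal axis) for each gene (vertical axis). The 95% interval computed from edgeR's quasi-likelihood fit is in blue for survival and in red for death genes. Diamonds give the fit with the replicate block. Every interval includes 0, and the diamond of Bid (-0.76) is on the other side of 0 from its circle (0.44).

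The order of levels was compared on the RPKM scale over the 6 libraries. *Bax* was highest (56.1 ± 27.7 RPKM, SD, n = 6), followed by *Mcl1* (36.7 ± 8.98), *Bcl2l1* (23.1 ± 11.1), *Bid* (20.7 ± 16.5), *Bad* (16.3 ± 6.29) and *Pmaip1* (13.0 ± 12.3). *Bak1* (4.59 ± 1.91 RPKM), *Bcl2* (3.41 ± 3.11), *Bcl2l11* (2.73 ± 2.55) and *Bbc3* (1.12 ± 1.30) formed the low end. Neighbours in this order did not differ beyond their spread. *Bax* was above *Mcl1* in 4 of 6 libraries, *Bid* above *Bad* in 3 of 6, and the steadiest step was *Pmaip1* above *Bak1*, in 5 of 6. Exon length was taken over all transcripts of a gene, and with the length of the principal transcript *Bcl2l1* (41.2 RPKM) was above *Mcl1* (36.7 RPKM).

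The balance of both sides was described as the log2 ratio of summed survival to summed death genes in each library. On the CPM scale it was 0.55, 0.14 and -0.48 in Vmed replicates 1, 2 and 3 and 0.32, -0.38 and -0.27 in Vhigh. The fractions overlapped, and the mean was 0.07 ± 0.52 in Vmed and -0.11 ± 0.38 in Vhigh (SD, n = 3), a difference of -0.18 that is smaller than either SD. The sign of this difference turned with the mean of log2 values in place of sums (0.18), without *Mcl1* (0.09) and without Vmed replicate 1 (0.06). On the RPKM scale the ratio was below 0 in all 6 libraries, at -0.64 ± 0.63 in Vmed and -0.99 ± 0.28 in Vhigh. Vmed replicate 1 was close to 0, at -0.013. The sums set 3 survival genes against 7 death genes, so the sign depends on the genes chosen and on the scale.

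The ratio was also formed for effectors and BH3-only genes separately. Set against the effectors on the RPKM scale, the survival genes had log2 ratios of 1.32, 0.41 and -0.74 in Vmed and 0.76, -0.25 and -0.37 in Vhigh, with wide overlap. Set against the 5 BH3-only genes, the ratios were 0.72, 0.33 and 0.42 in Vmed and -0.00, -0.14 and 0.19 in Vhigh. These did not overlap, with the Vhigh library below its same-numbered Vmed library in 3 of 3 pairs and a difference of the means of -0.47. The separation depended on the scale, and the scale planned for this ratio was CPM. On that scale the ratio was 1.00, 0.69 and 0.44 in Vmed and 0.78, 0.25 and 0.51 in Vhigh and overlapped. With RPKM from the length of the principal transcript, it was 0.48, 0.09 and 0.07 in Vmed and -0.15, -0.27 and 0.03 in Vhigh. The fractions then lay close together without overlap, and the difference in pair 3 was -0.04. No test is given for a sum over chosen genes. The sum left out *Bik*, *Bmf* and *Hrk*, other BH3-only genes of the family. *Bik* was at 7.19, 5.30 and 6.60 RPKM in Vmed and 0, 2.20 and 2.66 RPKM in Vhigh. *Bmf* was at 1.35, 1.06 and 7.19 RPKM in Vmed and 3.18, 2.10 and 4.56 RPKM in Vhigh. *Hrk* was at 1.17 RPKM in Vhigh replicate 2 and at 0 elsewhere. The ratio with these genes was not formed. The BH3-only sum was made up differently in each library, with *Pmaip1* at 39.1%, 3.49% and 7.07% in Vmed and 64.5%, 17.9% and 12.5% in Vhigh, and *Bid* at 0.345% in Vhigh replicate 1 against 20.4% to 61.5% in the others.

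**Figure D3:**
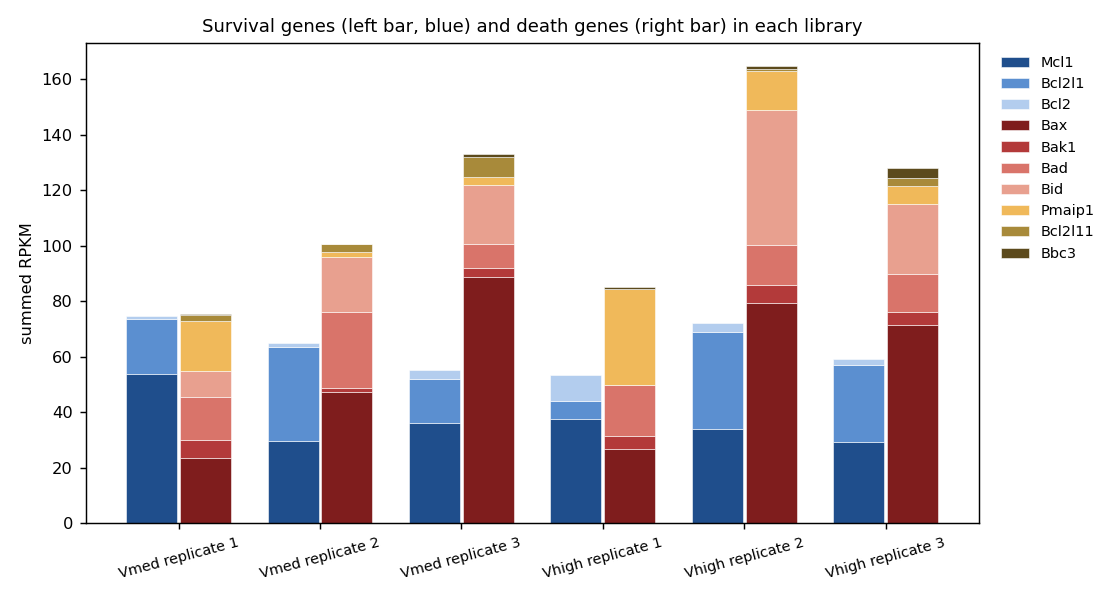
Summed RPKM (vertical axis) in each of the 6 libraries (horizontal axis), with survival genes stacked in the left bar and death genes in the right bar. Bax is a large part of the death bar in each library, and Pmaip1 is large in both libraries of replicate 1.

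**Figure D4:**
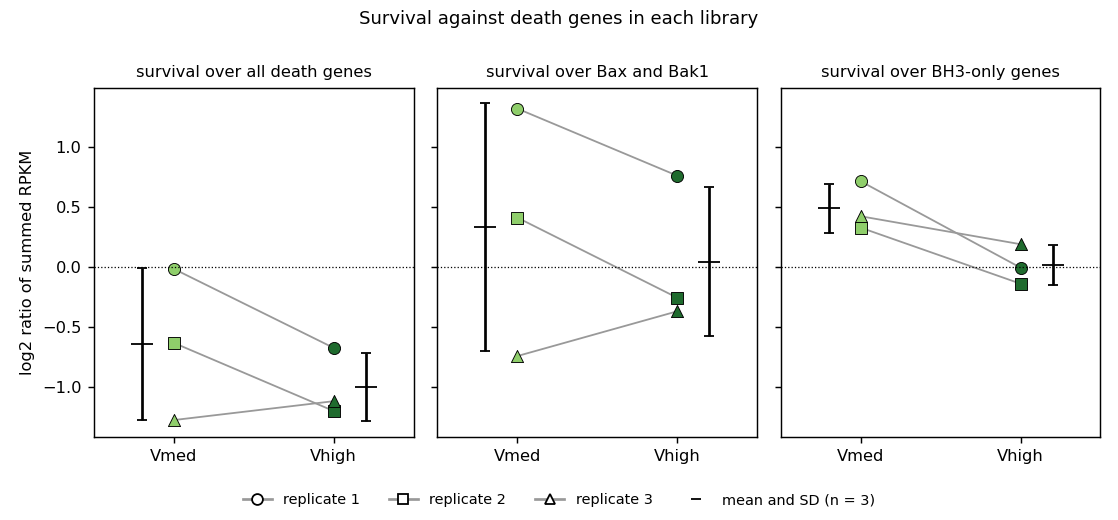
Log2 ratio of summed survival RPKM over the summed RPKM of death genes, effectors and BH3-only genes (vertical axis, 1 panel each) in Vmed and Vhigh. Lines join same-numbered libraries and bars show mean and SD (n = 3). The fractions overlap in the first 2 panels. In the BH3-only panel, which covers the 5 members only, Vmed lies at 0.33 to 0.72 and Vhigh at -0.14 to 0.19.

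Of 6 other survival genes of the family, 1 had enough counts to be tested, *Bcl2l2* (log2 fold change -1.16, standard error 2.33). The Bcl2a1 copies are nearly identical in sequence, so the counts of each copy are uncertain, and none was above 5.95 CPM. Of 4 other death genes, 3 were tested with a median log2 fold change of -1.08, and 2 were lower in all Vhigh than in all Vmed libraries, as were 4.71% of all genes. *Bok*, an effector-like gene, was at 44.7, 44.6 and 51.7 CPM in Vmed and 27.3, 10.2 and 28.6 CPM in Vhigh (log2 fold change -1.08, standard error 0.94). *Bik*, a BH3-only gene, was at 11.4, 8.44 and 10.5 CPM and at 0, 3.50 and 4.24 CPM (log2 fold change -2.06, standard error 2.02). Neither had an adjusted p under 0.05. Of 6 further relatives, all tested with a median of 0.19, *Bcl2l14* was higher in all Vhigh libraries, as were 4.15% of all genes. It was at 1.49, 0 and 0 CPM in Vmed and 9.76, 7.27 and 3.07 CPM in Vhigh (log2 fold change 3.67, standard error 2.32). Of the 6 relatives, the mitophagy receptors *Bnip3l* (136 ± 68.5 CPM in Vmed, 167 ± 157 CPM in Vhigh, SD, n = 3) and *Bnip3* (44.0 ± 27.4 and 40.1 ± 29.3 CPM) had the highest levels per exon length.

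Downstream of the mitochondria, 15 of 15 genes of the caspase pathway were tested, 0 were called and the median log2 fold change was 0.09. Without overlap, 3 were higher in Vhigh and 0 lower, where 4.15% and 4.71% of all genes were. Of these, *Htra2*, a mitochondrial protease, was at 2.17, 27.96 and 42.7 CPM in Vmed and 58.1, 45.8 and 50.3 CPM in Vhigh. *Dffa*, the inhibitor of the caspase-activated nuclease, was at 11.9, 43.9 and 32.7 CPM and 46.7, 46.4 and 56.7 CPM. For both, the lowest value was Vmed replicate 1. *Vdac1* and *Vdac2*, which encode channels of the outer mitochondrial membrane, had the highest levels, 385 ± 46.3 and 368 ± 70.2 CPM in Vmed and 446 ± 48.6 and 393 ± 65.7 CPM in Vhigh (SD, n = 3). In this list 6 of 15 genes were higher in Vhigh in 3 of 3 pairs and 0 were lower in 3 of 3, where 15.2% and 15.4% of all genes were.

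Among 5 inhibitors of apoptosis, 0 were called or free of overlap, and the median log2 fold change was 0.36. *Birc5*, which encodes survivin and is linked to cell division, had the highest level per exon length, at 387 ± 30.1 CPM in Vmed and 400.4 ± 113 CPM in Vhigh (SD, n = 3), followed by *Birc2* at 43.6 ± 32.1 and 84.5 ± 91.1 CPM. In the death receptor pathway 8 of 10 genes were tested, with 0 called and a median of -0.49. *Ripk1*, a kinase of the receptor complex, was higher in all Vhigh libraries, as were 4.15% of all genes, at 17.2, 17.5 and 23.0 CPM in Vmed and 25.0, 34.3 and 80.7 CPM in Vhigh (log2 fold change 1.25, standard error 0.97). *Casp8*, whose product cleaves *Bid*, was at 60.0 ± 14.0 CPM in Vmed and 129 ± 81.1 CPM in Vhigh, with overlap, and *Tnfrsf1a*, a receptor for tumor necrosis factor, was at 70.1 ± 51.2 and 58.5 ± 61.6 CPM (SD, n = 3).

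Of the genes that act before the Bcl2 family, 13 of 13 in the p53 pathway were tested, with 0 called, 0 free of overlap and a median log2 fold change of -0.21. *Trp53* itself was at 459 ± 85.1 CPM in Vmed and 507 ± 67.0 CPM in Vhigh, and its inhibitor *Mdm2* at 70.1 ± 31.8 and 94.1 ± 44.7 CPM (SD, n = 3). Among 10 genes, mostly of transcription factors, known to act on BH3-only genes or *Bcl2l1*, 8 had positive and 2 negative log2 fold changes, with 0 called, 0 free of overlap and a median of 0.80. *Atf4* was at 220.2 ± 24.7 CPM in Vmed and 218 ± 29.8 CPM in Vhigh, and *Myc* at 86.6 ± 70.2 and 210.3 ± 122 CPM (SD, n = 3).

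The turnover of Mcl1 protein is not measured by RNA, and 5 of 5 genes known to act in it were tested, with 0 called and a median of -0.14. *Btrc*, a subunit of a ubiquitin ligase, was at 25.2, 69.4 and 58.4 CPM in Vmed and 308, 97.96 and 73.7 CPM in Vhigh. It was higher in all Vhigh libraries, as were 4.15% of all genes, with by far the highest value in Vhigh replicate 1. In log2 terms Vhigh was above Vmed by 1.69 with a standard error of 0.73, and the adjusted p of edgeR's quasi-likelihood test was 0.9998. The kinase gene *Gsk3b* (472 ± 311 CPM in Vmed, 398 ± 214 CPM in Vhigh, SD, n = 3) and the ligase gene *Huwe1* (216 ± 43.3 and 209.7 ± 165 CPM) had the highest levels and overlapped.

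**Figure D5:**
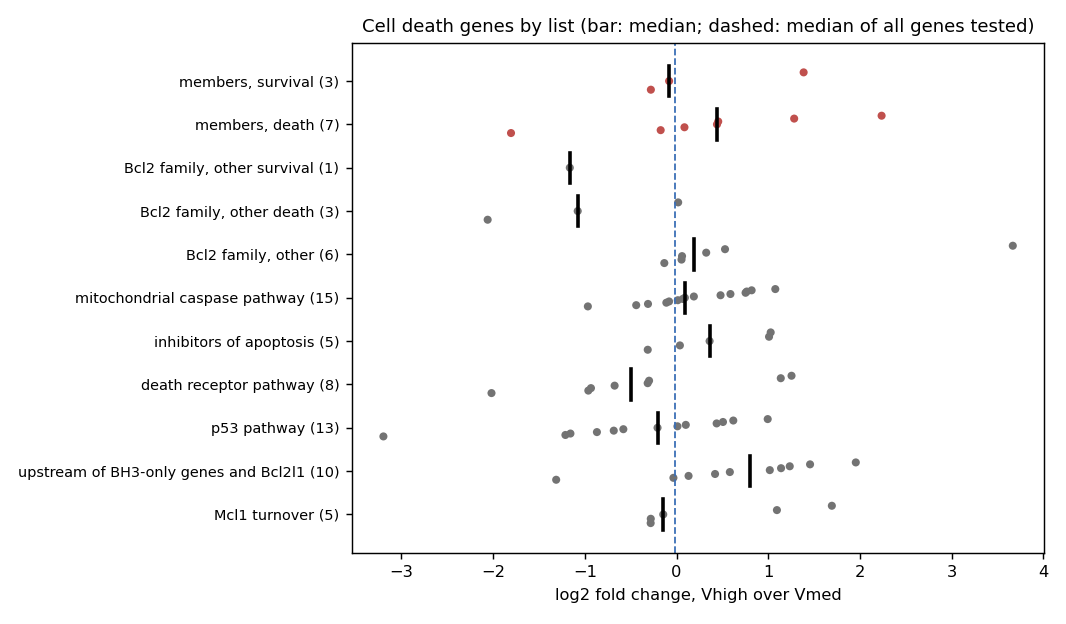
Log2 fold change of Vhigh over Vmed (horizontal axis) of each gene tested, by list (vertical axis, number of genes in brackets), with the 10 members in red. Bars mark the median of a list and the dashed line the median of all genes tested (-0.02). In each list drawn here with more than 1 gene, the points lie on both sides of 0.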

How the data were processed

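Bulk RNA sequencing of CD31+ckit+Vmed and CD31+ckit+Vhigh cells gave 6 libraries of 50-base single reads from SMARTer-amplified RNA. The authors aligned them to GRCm38/mm10 and deposited raw counts per gene. The submitters' processing notes name TopHat, Bowtie 1.1.2 and HTSeq, and the annotation and strand setting are not given in the sources used here. Fractions and replicate numbers come from the labels.

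Genes were kept by filterByExpr (12688 of 24062), scaled by TMM and compared with edgeR 4.0.16 in R 4.3.3 by quasi-likelihood, fitting the fraction alone. P-values were adjusted after Benjamini-Hochberg over all genes tested, with 0.05 as the threshold. CPM use the total count on genes, without lines that name no gene. RPKM divide CPM by exon length from GENCODE M21, where 22750 symbols were found as written, 934 by an older name and 378 not at all. For single genes there was also an exact two-sided permutation test over 20 arrangements. DESeq2 1.42.0 and limma 3.58.1 (voom) were alternatives. The quasi-likelihood fit was also run on simulated counts, with dispersions set below the median of these data (1.19). No result given here rests on that run.

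Same-numbered libraries deviated together from their fraction means, with r across genes of 0.21, 0.21 and 0.39 in pairs 1, 2 and 3, so a fit with the replicate number as a block was added. All 10 members were named. Of other cell death lists, genes free of overlap and the 2 with the highest RPKM were named, except 1 gene that is not reported here, and lists of cell type markers were given as sums. The members and lists were chosen with earlier results of these data known. Read counts carry no molecular identifiers, so floors and counting intervals cover counting error only.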

Additional observations from a re-analysis of the deposited data

How the results depend on the processing

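The count of called members was 0 in the quasi-likelihood test and in all 17 alternatives, with 0.94 as the smallest adjusted p. Over all genes tested, the count was 0 in edgeR's quasi-likelihood test, 37 without a filter on low counts (13 higher and 24 lower in Vhigh), 21 with the likelihood ratio test (11 and 10), 51 with DESeq2 (20 and 31) and 74 with the likelihood ratio test and a replicate block (26 and 48). It was 0 to 1 as single libraries were left out, the 1 gene being lower in Vhigh without Vhigh replicate 1.

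Of 170 log2 fold changes of members under alternatives, 158 kept their sign and 12, in 5 members, did not. *Bid* was at -0.76 with the replicate block (quasi-likelihood), at -0.77 with the block and the likelihood ratio test, and at -0.98 with limma-voom, and the cause was not tested. The block changed no other sign and no call. As single libraries were left out, *Bcl2l1* ranged from -0.45 to 0.34, *Mcl1* from -0.49 to 0.029, *Bax* from -0.26 to 0.70, *Bad* from -0.49 to 0.25 and *Bid* from -0.45 to 1.02. The median of all genes tested was -0.14 with limma-voom, -0.11 with the block and -0.12 without Vhigh replicate 2 or 3, against -0.02.

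The difference in the survival to death log2 ratio was -0.36 on the RPKM scale, and -0.27 with the length of the principal transcript, an alternative chosen after seeing the data. It ranged from -0.45 to 0.06 as single libraries were left out. With a biological coefficient of variation of 1.16 in these libraries, intervals of members were wide, and for *Bbc3* the low counts were a further limit.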
